A study of Carassius auratus with 5 samples.

Results

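Neuropeptide Y (NPY), pituitary adenylate cyclase-activating polypeptide (PACAP) and other peptides that act on feeding and stress were followed here on a goldfish cDNA array. Clones were taken by words in their deposited names, such as NPY, PACAP, tachykinin, galanin and corticotropin, and not by any measured value. This gave 9 of the 8099 clones on the array, each printed as 2 spots, and all 9 passed the filter on dim spots that left 8078 clones. They were 3 NPY clones, 2 PACAP clones, 2 tachykinin clones, 1 galanin clone and 1 clone of the binding protein of corticotropin-releasing hormone (CRH). The words cholecystokinin, orexin, urotensin and opiomelanocortin and the hyphenated spelling of cocaine- and amphetamine-regulated transcript (CART) matched 0 clones. The names carry no accession or sequence, so that the clones could not be placed in the goldfish genome.

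Telencephalon RNA was taken from female goldfish that were sexually mature. On each of 5 arrays, replicates 1 to 5, cDNA of 1 independent group of fish kept in water with 50 µg/L fadrozole carried the dye Cy3. It was hybridized with cDNA of the 1 common pool of unexposed fish, which carried Cy5 on every array. Fadrozole inhibits aromatase, the enzyme that turns androgens into estrogens. The age of the fish, the length of the exposure and the number of fish in a group are not given in the sources used here. The dye and the exposure cannot be told apart in this layout, and the pool, as the only control sample, has no spread of its own.

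NPY is a peptide of forebrain neurons that raises food intake in goldfish and other vertebrates, and it also acts on the release of pituitary hormones. PACAP binds receptors that couple to the stimulatory G protein and so raises cyclic AMP in its target cells. It lowers food intake when given into the goldfish brain. Both are cut from larger precursors and stored in dense-core granules, in which secretogranin II is a main protein.

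Signals were dim in both channels. The median spot intensity was 122 to 386 scanner units in the fadrozole channel and 62.9 to 96.4 in the control channel, against medians of empty spots of 98.2 to 311 in the fadrozole channel and 0 to 49.7 in the control channel. Between 22.7% and 64.8% of spots were above the local background in the fadrozole channel and between 79.3% and 90.7% in the control channel. For forebrain neurons and glia, 69 listed clones were tested, many of them of ependymin, a secreted brain glycoprotein. The fadrozole channel was above background on at least 3 arrays for 52 of them and the control channel for 69. Clones of the pituitary, of the preoptic area and hypothalamus, and of blood were also above background in the control channel on at least 3 arrays (2 of 2, 10 of 10 and 12 of 12). In the fadrozole channel this held for 1, 7 and 6 of them. Of all 8078 tested clones, 8060 met this mark in the control channel and 3352 in the fadrozole channel. Nearly every clone thus meets it in the control channel, so that it does not show which tissues were present. Across all tested clones, limma called 164 (2.03%) at an adjusted p under 0.05, and 94 of the 130 lower calls were on plate 02, 1 of the source plates the array was printed from. The median clone of plate 02 stood at -0.35 ± 0.15 (SD, n = 5 arrays), below 0 on all 5 arrays, and the plates of the 4 clones off plate 02 had medians between -0.04 and 0.02.

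Values below are normalized log2 ratios of fadrozole over control, as the mean of the 2 spots. Negative ratios stand for less signal from fadrozole-exposed fish after normalization. In tissue RNA, fewer cells of a type and less RNA per cell cannot be told apart. Of the 9 clones, 1 PACAP clone passed limma's test, in the lower direction, and 0 were higher. That is 11.1% of these clones, where 1.61% of all tested clones were called lower and 0.421% higher. On plate 02, which holds 5 of the 9, the share called lower was 20% of these clones and 24.5% of all 384 clones of the plate. Off plate 02 it was 0 of 4 clones and 0.468% of all clones. At an unadjusted p under 0.05, 4 of the 9 were lower, as were 8.06% of all tested clones. By plate, these were 3 of the 5 clones on plate 02, where 64.8% of all clones were lower, and 1 of the 4 clones elsewhere, where 5.22% were. The same 4 clones were below 0 on all 5 arrays, as were 7.65% of all tested clones, 50% of those on plate 02 and 5.54% of those on other plates. The shares on plate 02 were therefore close to those of the plate as a whole.

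**Figure D1:**
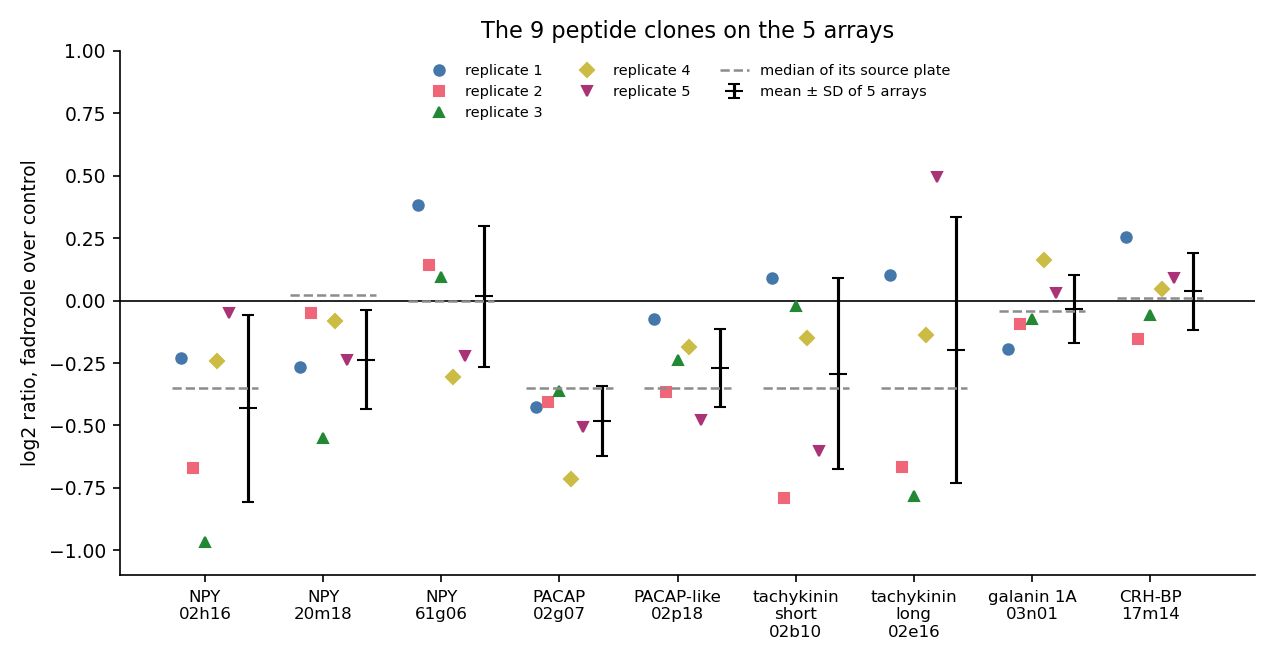
Log2 ratio of fadrozole over control for each of the 9 peptide clones. Coloured symbols are the 5 arrays, black marks the mean ± SD, and the dashed line the mean over arrays of the median of the clone's source plate, which lies at -0.35 for the 5 clones of plate 02; all 5 symbols lie below 0 for NPY 02h16, NPY 20m18, PACAP 02g07 and PACAP-like 02p18.

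Of the 2 PACAP clones, both on plate 02, where 24.5% of all clones were called lower, 1 was called lower. For this clone, named PACAP (02g07), the fadrozole intensities were 329, 583, 535, 280 and 136 on replicates 1 to 5, against control intensities of 218, 479, 217, 132 and 219. The normalized ratios were -0.43, -0.40, -0.36, -0.71 and -0.51. Every normalized ratio was below 0, and that of replicate 4 was the lowest, though the raw intensity was lower in the fadrozole channel on replicate 5 alone. The mean of -0.48 ± 0.14 is 1.40-fold lower, with a 95% interval of -0.66 to -0.30 and an adjusted p of 0.0224 by limma. Its control channel was above the local background on 5 arrays and its fadrozole channel on 4, all but replicate 4. Both channels are weak, and the fadrozole channel exceeded the 95th percentile of the empty spots on 2 arrays. Within plate 02 the clone was not extreme, since 107 of the 384 clones (27.9%) had a lower mean. After every plate was centered on its own median on each array, it stood at -0.13 ± 0.28, below 0 on 3 arrays, with a limma adjusted p of 0.673. Image quantification took place on 2 days, replicate 1 apart from the other 4. The ratio was -0.48 with the day as a random block (adjusted p = 0.0176) and -0.50 on the 4 arrays of the second day alone (adjusted p = 0.0943, limma).

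A second clone carries the name adenylate cyclase-activating peptide 1 like (02p18) and also belongs to the PACAP family by name. Its fadrozole intensities were 306, 371, 600, 307 and 130, against control intensities of 122, 272, 168, 59.0 and 221. The ratios were -0.08, -0.37, -0.24, -0.19 and -0.48. They averaged -0.27 ± 0.16 (adjusted p = 0.158, limma). The 5 arrays were again all below 0, replicate 1 by the least and replicate 5 by the most. On replicates 1, 3 and 4, however, its 2 spots had opposite signs. Its fadrozole channel was not above the local background on replicates 3 and 4. The 2 spots of this clone differed by up to 1.08 on an array, above the 0.691 that 90% of all spot pairs stayed within. With its plate centered, the clone stood at 0.08 ± 0.23, above 0 on 3 of 5 arrays.

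The 2 PACAP clones together averaged -0.38 ± 0.10 over arrays, and -0.03 ± 0.24 with their plate centered. On each array 02g07 was below 02p18. The difference, 02g07 minus 02p18, was -0.21 ± 0.22, with a two-sided exact sign permutation p of 0.0625. That is the smallest p that 5 arrays allow, and it was 0.4375 after adjustment over the 7 pairs of clones compared in this way. Whether the clones stand for 1 gene or for separate copies is not shown by their names.

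**Figure D2:**
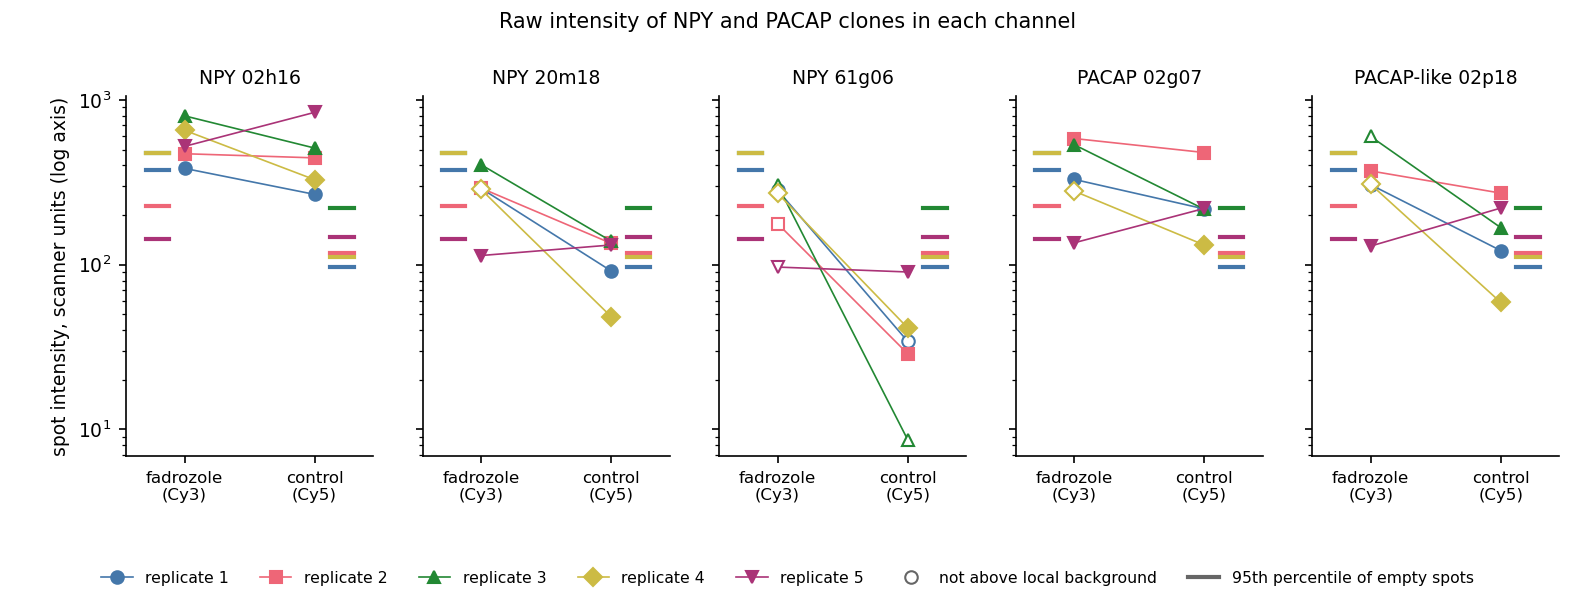
Raw intensity of the NPY and PACAP clones in the fadrozole (Cy3, left) and control (Cy5, right) channel of each array, on a log axis in scanner units before any normalization. Horizontal bars mark the 95th percentile of empty spots on the same array (those of replicates 3 and 4 coincide in the fadrozole channel) and open symbols a signal not above its local background; NPY 02h16 lies above the empty spots in both channels on all 5 arrays and NPY 61g06 on 0.

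NPY was represented by 3 clones on 3 plates, and their signals differed widely in strength. The brightest was 02h16, with fadrozole intensities of 384, 471, 801, 654 and 522 and control intensities of 267, 445, 510, 328 and 840. Of the 9 clones, it alone exceeded the 95th percentile of the empty spots in both channels on all 5 arrays. Its ratios were -0.23, -0.67, -0.97, -0.24 and -0.05. The mean was -0.43 ± 0.38 (95% interval -0.73 to -0.14). All arrays were below 0, but replicates 2 and 3 were far lower than the other 3. On replicates 1 and 5 its 2 spots had opposite signs. The clone did not pass the test over all clones (unadjusted p = 0.00883, adjusted p = 0.148, limma). On plate 02, 137 of the 384 clones (35.7%) had a lower mean, and with the plate centered it stood at -0.08 ± 0.27.

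The clone named neuropeptide Y after the carp sequence (20m18) lies on plate 20, whose median was 0.02 ± 0.03. Its fadrozole intensities were 290, 292, 404, 286 and 114, against control intensities of 91.6, 135, 139, 48.4 and 132. It was above the local background on 2 arrays in the fadrozole channel and on 5 in the control channel, so that it passed the filter through the control channel, in which its normalized signal is the higher. It exceeded the 95th percentile of the empty spots on 1 array in the fadrozole channel and on 1 in the control channel. The ratios were -0.26, -0.05, -0.55, -0.08 and -0.24, with a mean of -0.24 ± 0.20 (95% interval -0.44 to -0.03, unadjusted p = 0.0276, adjusted p = 0.260, limma). Every array was below 0, with replicate 3 the lowest, as it was for 02h16. Of the 166 clones of plate 20, 6 (3.61%) had a lower mean. With each plate centered, the ratio was -0.26 ± 0.18, below 0 on 5 of 5 arrays, with an unadjusted p of 0.0148 and an adjusted p of 0.295 by limma. An unadjusted p under 0.05 was reached in that fit by 11.3% of all tested clones in either direction. Since the clone was kept through the channel in which it is higher, its p is given as a description only. Its 2 spots had opposite signs on replicates 2 and 4.

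The third clone, NPY precursor (61g06), was the dimmest of the 9 in the control channel. Its fadrozole channel was not above the local background on any array, at 283, 178, 304, 271 and 96.7, and its control channel was on 3 of 5, at 34.3, 28.8, 8.67, 41.4 and 90.3. Its measured mean signals after normalization were 6.98 in the fadrozole channel and 6.97 in the control channel on the log2 scale, and the bound that such a pair allows is under 1, so that no fold is given. The ratios of 0.38, 0.14, 0.09, -0.31 and -0.22 lay on both sides of 0.

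Taken as the mean of the 3 clones, NPY stood at -0.04, -0.19, -0.47, -0.21 and -0.17 on the 5 arrays, a mean of -0.22 ± 0.16. This mean includes 61g06, which did not exceed the empty spots. With each plate centered, the mean was -0.11 ± 0.14 and was below 0 on 4 arrays. The difference of 02h16 minus 20m18 was -0.19 ± 0.33, below 0 on 3 of 5 arrays (exact sign permutation p = 0.375, 0.6125 after adjustment over the 7 pairs). With 5 arrays this test cannot go below 0.0625, so that it does not show that the clones act alike. No difference from 61g06 is given, since its fadrozole channel was never above background.

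Tachykinins are excitatory peptides of the substance P family and were represented by 2 clones on plate 02, named short and long. The short form (02b10), whose name mentions a weak PCR band, had ratios of 0.09, -0.79, -0.02, -0.15 and -0.60. Their mean was -0.29 ± 0.38 (adjusted p = 0.356, limma). Its 2 spots differed by up to 2.01 on an array, and the 2 spots had opposite signs on replicates 1, 3 and 4. The long form (02e16) had ratios of 0.10, -0.67, -0.78, -0.14 and 0.50, with a mean of -0.20 ± 0.53 (adjusted p = 0.665, limma). Replicate 5 stood apart in brightness, with a fadrozole intensity of 2469 and a control intensity of 2124, where the other arrays had at most 521 in the fadrozole channel and 476 in the control channel. Short minus long was -0.10 ± 0.66 (exact permutation p = 0.5625). With plate 02 centered, both turned to the other side of 0, at 0.06 ± 0.43 for the short form and 0.15 ± 0.45 for the long form, and their mean of 0.10 ± 0.29 was above 0 on 4 of 5 arrays. Leaving out an array also moved them. The long form stood at -0.08 without replicate 2, -0.05 without replicate 3 and -0.37 without replicate 5, and the short form at -0.17 without replicate 2.

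The galanin and CRH-binding protein clones were at the level of empty spots. Preprogalanin 1A (03n01), the precursor of a peptide that raises feeding in goldfish, is marked as holding vector sequence. It had a mean ratio of -0.03 ± 0.14 (adjusted p = 0.900, limma), with array values between -0.19 and 0.16. The putative CRH-binding protein (17m14), which binds CRH and related peptides and keeps them from their receptors, had a mean of 0.04 ± 0.15 (adjusted p = 0.896), with array values between -0.15 and 0.26. Neither exceeded the 95th percentile of the empty spots in either channel on any array, so that a change in these transcripts was not detectable at this signal.

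Averaged over all 9 clones, the ratio was -0.21 ± 0.13 and below 0 on 5 of 5 arrays, and with each plate centered it was -0.02 ± 0.12. The 5 clones on plate 02 averaged -0.33 ± 0.19 and the 4 on other plates -0.05 ± 0.07. Of those 4, clones 61g06, 03n01 and 17m14 did not exceed the 95th percentile of the empty spots in either channel on any array. The 2 averages thus differ in signal as well as in plate.

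A further 5 clones of such peptides are spelled in ways that the search words missed, and all lie on plate 02. They were picked from the clone names after the data had been seen. A clone named adcyap1b, a gene for PACAP, had the brightest control signals of the 5. Its ratios of -0.77, -0.05, -0.48, 0.38 and -0.23 gave a mean of -0.23 ± 0.44 (02f23, adjusted p = 0.530, limma). Both of its channels exceeded the 95th percentile of the empty spots on all arrays. Neither 02g07 nor 02p18 did so in both channels, and the arrays of adcyap1b lay on both sides of 0. The called clone 02g07 minus 02f23 was -0.25 ± 0.55 (exact permutation p = 0.4375), and 02p18 minus 02f23 was -0.04 ± 0.50 (exact permutation p = 0.9375).

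CART I and cholecystokinin (02d16 and 02c02), which both lower feeding in fish, had means of -0.13 ± 0.26 and -0.12 ± 0.26. Preproghrelin (02b18), the precursor of a peptide that raises feeding in goldfish, had -0.13 ± 0.27. Neither CART I nor preproghrelin exceeded the 95th percentile of the empty spots in either channel on any array. Their fadrozole channels were above the local background on 1 array each, so that a change in these 2 transcripts was not detectable at this signal. The clone CRF (02a14), an older name of CRH, the peptide that starts the stress response, had -0.07 ± 0.26. None of the 5 passed limma's test, with adjusted p between 0.530 and 0.826 and 0 at an unadjusted p under 0.05. Of all clones of plate 02, 24.5% were called lower and 64.8% were lower at that unadjusted p. All had a higher mean than most clones of their plate, between 69.5% of the plate lower for adcyap1b and 88.5% for CRF. The offset in the background correction shrinks the ratios of dim spots, and its part in these ranks and in the centered values was not tested. With the plate centered, the 5 stood at 0.12 to 0.28, and their mean was 0.21 ± 0.08, above 0 on all 5 arrays. In that fit CRF (unadjusted p = 0.0311) and cholecystokinin (unadjusted p = 0.0205) had adjusted p of 0.381 and 0.330 by limma. The 2 spots of cholecystokinin differed by up to 1.09 on an array and had opposite signs on replicates 1 and 4. Its fadrozole channel exceeded the 95th percentile of the empty spots on 1 array and its control channel on 2. For CRF this held on 3 arrays in each channel. The direction in which these peptides lie relative to 0 thus turns with the centering of the plate.

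**Figure D3:**
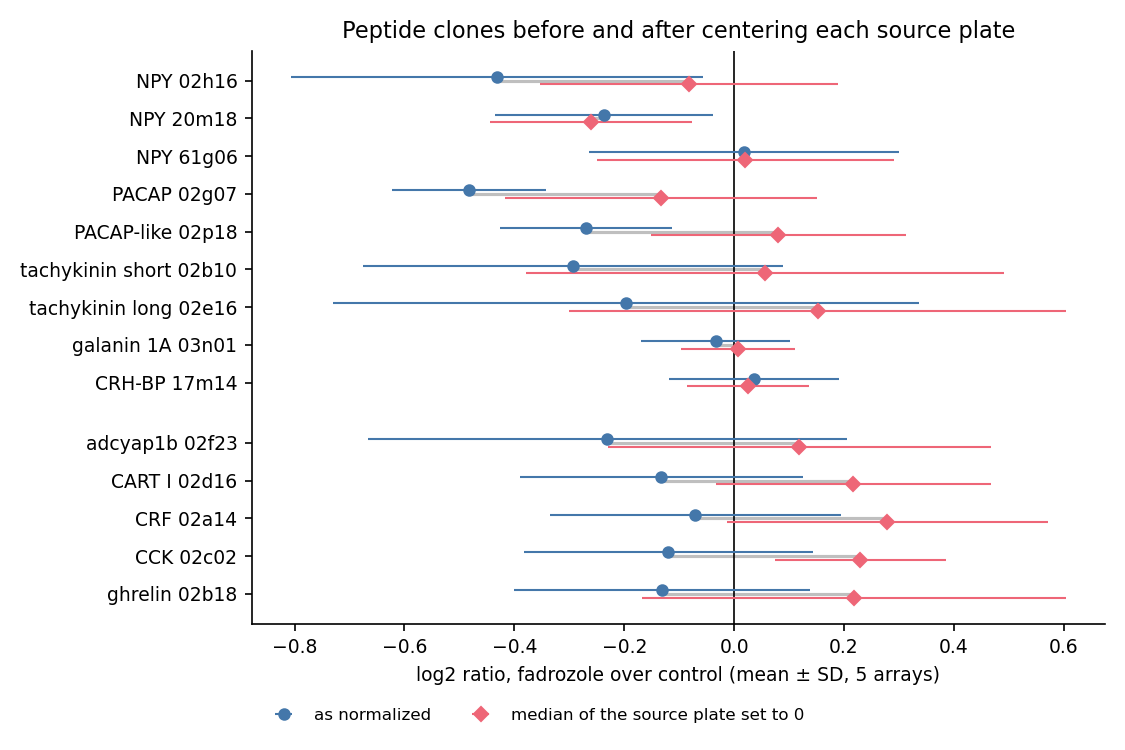
Mean log2 ratio of fadrozole over control ± SD over 5 arrays for the 9 clones (upper block) and the 5 clones spelled otherwise (lower block). Circles are the values as normalized and diamonds those after centering every source plate on its own median; the circles of the 10 clones on plate 02 lie between -0.48 and -0.07 and their diamonds between -0.13 and 0.28, while the clones on other plates hardly move.

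Partners of these peptides were taken from 4 lists of words in clone names. Receptors were represented by 1 clone, VIPI receptor (02f03), whose name is that of a receptor of vasoactive intestinal polypeptide, a family that also binds PACAP. It is on plate 02 and had a mean of -0.18 ± 0.25 (adjusted p = 0.485, limma), which turned to 0.17 ± 0.22 with the plate centered. No clone named as an NPY receptor was matched.

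Peptide processing and granule proteins held 14 tested clones with a median of -0.09, beside a median of -0.003 over all tested clones, and 1 was called lower and 0 higher, where 1.61% of all tested clones were called lower. It was 1 of the 4 listed clones on plate 02, where 24.5% of all clones were called lower, which is close to the share of the plate. The called clone was SgII (02j04), for secretogranin II, a granule protein that is cut into the peptide secretoneurin, at -0.48 ± 0.20 (adjusted p = 0.0374, limma). It is on plate 02, where its centered value was -0.13 ± 0.07. A secretogranin II clone named after grass carp (17o09) lies on plate 17, whose median was 0.01 ± 0.05. It stood at -0.40 ± 0.24, below 0 on all 5 arrays, with an adjusted p of 0.0786, and at -0.41 ± 0.20 with plates centered (unadjusted p = 0.00122, adjusted p = 0.175, limma). The remaining 5 clones of secretogranin II did not pass: 02e10 had -0.27 ± 0.23 and 02e09 -0.09 ± 0.12 on plate 02, and those on plates 51, 52 and 53 had 0.06 ± 0.21, -0.01 ± 0.22 and -0.03 ± 0.13. Clones of the same name therefore ranged from -0.48 to 0.06. Carboxypeptidase E, which trims peptides after the precursor is cut, had 0.04 ± 0.08 and 0.02 ± 0.25 in 2 clones. Clones 15l12, 21d04 and 23f09, named as similar to secretory granule proteoglycan core protein, are also among the 14. They stood at -0.05, -0.13 and -0.08, uncalled. Their names do not show that they belong to granules of peptide neurons.

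Other feeding and brain peptides held 8 clones, CART I and preproghrelin among them, with a median of -0.04. By limma 0 were called, with 1 higher and 1 lower at an unadjusted p under 0.05. Of all 8078 tested clones, 2.03% were called, and at that unadjusted p 508 clones were higher and 651 (8.06%) lower. The smallest p belonged to nucleobindin 2 (18c10), the precursor of nesfatin-1, a peptide that lowers food intake. Its mean was 0.31 ± 0.12, above 0 on all 5 arrays, with an unadjusted p of 0.00282 and an adjusted p of 0.0797 by limma. With plates centered it was 0.27 ± 0.14 (adjusted p = 0.232, limma). Another nucleobindin 2 clone (15f20) stood at 0.04 ± 0.24. A glucagon clone (02c04), the 1 lower at that unadjusted p, had -0.29 ± 0.36 (adjusted p = 0.338, limma). It is on plate 02, where 64.8% of all clones were lower at that p. With the plate centered it stood at 0.06 ± 0.30. Another glucagon clone, on plate 03 (03j07), had -0.05 ± 0.31. The cyclic AMP pathway carries the PACAP signal inside the cell. Its list matched adenylyl cyclase-associated protein 1 (27a12), but no clone named as an adenylyl cyclase, a protein kinase A subunit, CREB or a phosphodiesterase. The list held 6 clones between -0.15 and 0.12, with a median of -0.03, 0 called and 0 at an unadjusted p under 0.05 by limma. The smallest p in it were those of ARPP-19 (58l20), a cyclic AMP-regulated phosphoprotein, at -0.15 ± 0.20, and of 2 clones of the stimulatory G protein alpha subunit, at -0.11 ± 0.15 (20b05) and 0.12 ± 0.19 (22k18).

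**Figure D4:**
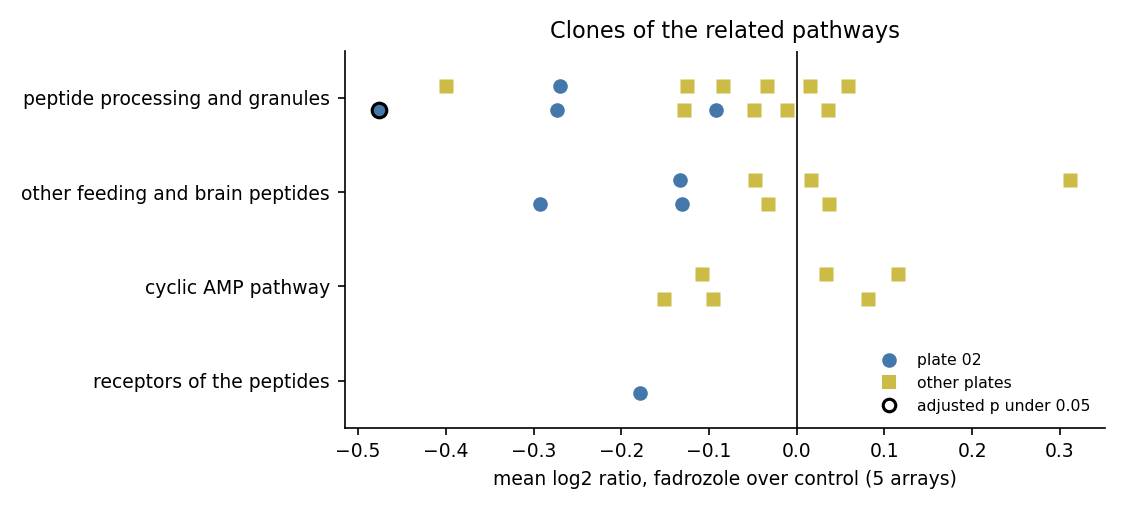
Mean log2 ratio of fadrozole over control of each tested clone in the 4 related lists; each symbol is 1 clone over 5 arrays, circles for plate 02 and squares for other plates, and a black outline marks an adjusted p under 0.05. The outlined clone is SgII 02j04 at -0.48, and the clone farthest above 0 is nucleobindin 2 at 0.31.

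Markers of the forebrain, of neighbouring tissue and of blood were set beside these values. Of the 69 forebrain clones, 8 were called lower, all on plate 02, and 0 higher, with 21 lower and 2 higher at an unadjusted p under 0.05 by limma. Many of the 69, and most of the 8, carry the name ependymin, so that these counts are not spread evenly over the listed genes. The cells that make ependymin were not tested here. Among all tested clones, 1.61% were called lower and 8.06% were lower at that unadjusted p. On plate 02 these shares were 24.5% and 64.8%. The 23 of them on plate 02 had a median of -0.42 and the 46 elsewhere -0.07. EPD-I (ependymin, a secreted brain glycoprotein, 02k11) at -0.64 ± 0.26 and SNAP-25 (a synaptic protein, 02n17) at -0.64 ± 0.34 lay below the called PACAP clone, and a clone of the stathmin family (02e17) stood at -0.46 ± 0.17. These are from the low end of the list, which ran from -0.64 to 0.31. Another stathmin-family clone of plate 02 (02a24) stood at -0.07, neurogranin (02a05) at 0.05 and a stathmin clone of plate 20 (20o20) at 0.31. These lie above the median of the list, -0.16. Most other stathmin clones were below 0, and another neurogranin clone, on plate 22 (22f07), stood at -0.25 ± 0.16 (adjusted p = 0.193, limma). Aromatase clones 03k22, 03n04 and 03p04 stood at 0.29, -0.03 and -0.02. The summed intensity ran from 30471 to 108017 in the fadrozole channel and from 19081 to 55526 in the control channel for the 69 clones. The 10 clones listed for the preoptic area and hypothalamus, where NPY, CRH and CART neurons also lie, had a median of -0.12. Among them 1 was called lower, an isotocin clone of plate 02 (02e11) at -0.56 ± 0.32 (adjusted p = 0.0489, limma). The list includes the gonadotropin-releasing hormone clones sGnRH (02a17) and cGnRH-II (02d17 and 02g15), whose names do not show that they mark this region. Of these 10 clones 7 are on plate 02, where 24.5% of all clones were called lower, and with plates centered the median turned to 0.10. Isotocin clones 02e01, 02j22 and 02k01 then stood at 0.16, 0.19 and 0.29, and 02e11 at -0.21 ± 0.22. The isotocin clones off plate 02 stood below 0 in the same fit, at -0.04 (03f07) and -0.14 (61l10). The summed intensity of the 10 clones ran from 1346 to 4747 in the fadrozole channel and from 620 to 3443 in the control channel. The pituitary clones were growth hormone (02c08, plate 02) at -0.33 ± 0.18 and thyrotropin beta (03k06, plate 03) at 0.05 ± 0.22, and both were uncalled. Their summed intensity was 214 to 924 in the fadrozole channel and 171 to 307 in the control channel. The 12 globin clones, all off plate 02, had a median of -0.35 with 0 called and 5 at an unadjusted p under 0.05, all lower, where 5.22% of all clones off plate 02 were. Their median on single arrays ran from -0.87 to 0.07. Their summed intensity was 1628 to 6318 in the fadrozole channel and 793 to 3628 in the control channel. The part of these markers in the peptide ratios was not tested.

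Clones were ranked by the root mean square distance of their ratios from a mean profile over the 5 arrays. This distance depends on level as well as shape. Among 3358 described clones, the nearest to the NPY mean was alpha enolase (14m15), at a distance of 0.0623 on the log2 scale. Next were tuba8l4 (a tubulin, 02j23) at 0.0910 and a nucleolar RNA helicase (16g04) at 0.107. Those nearest to the PACAP mean were Calmodulin A (27c21) at 0.0852, a ubiquitin carboxyl-terminal hydrolase 2 (30a05) at 0.121 and glucose transporter 1 (14f04) at 0.122. Of these 6 clones, only tuba8l4 is on plate 02. All share the same 5 arrays and the same control pool with the peptides, and the distances are a description.

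**Figure D5:**
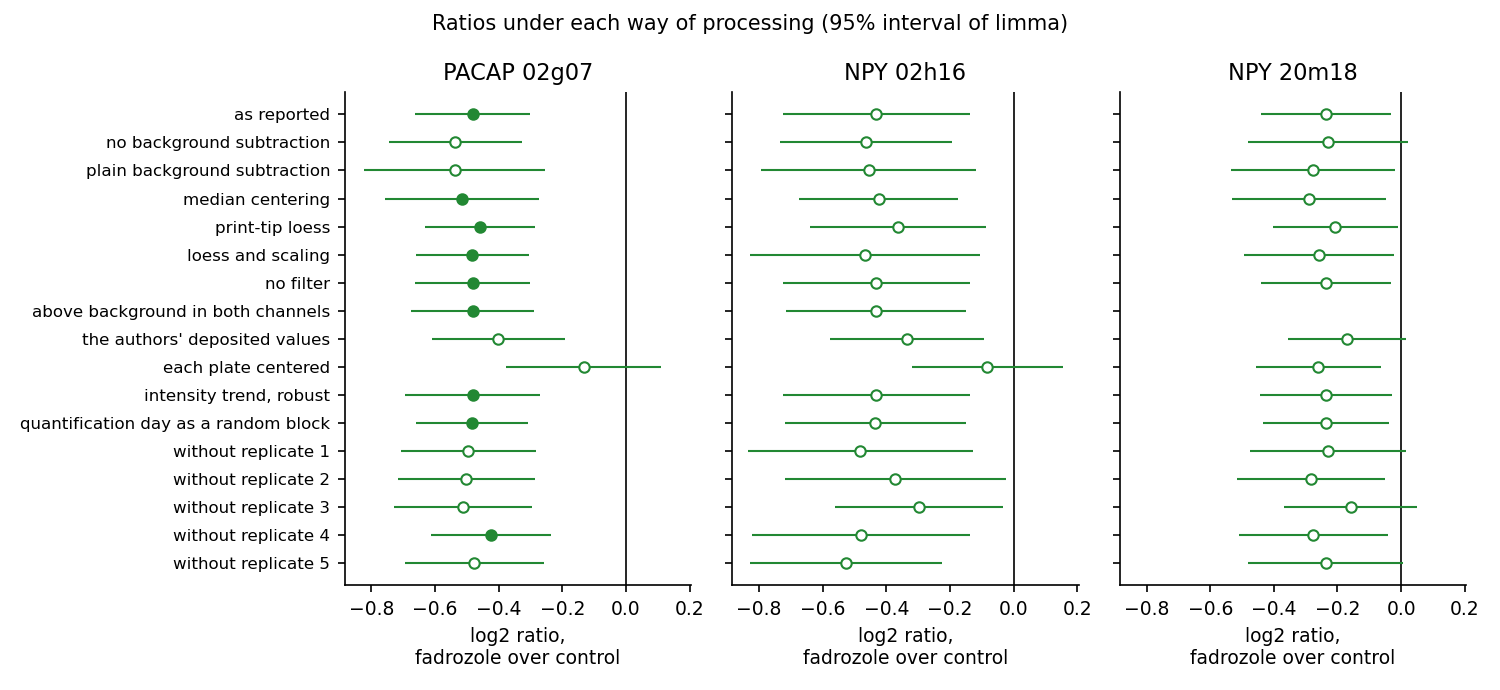
Log2 ratio of fadrozole over control with limma's 95% interval under each way of processing, for PACAP 02g07 and the NPY clones 02h16 and 20m18; filled symbols have an adjusted p under 0.05 and NPY 20m18 was not tested where both channels had to be above background. Each symbol lies below 0, filled symbols occur for PACAP alone, and centering each plate brings PACAP 02g07 to -0.13 and NPY 02h16 to -0.08 and leaves NPY 20m18 at -0.26.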

How the data were processed

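Spot intensity and local background are linear scanner units of a 2-channel scan, adaptively quantified and neither background subtracted nor corrected for crosstalk, per the file headers. A second table deposited by the authors holds 1 processed value per spot on a scale like log2, whose base and scaling are unstated. Their row order was settled by matching them to the scanner values. Across spots they correlated at -0.996 to -1.00 with scanner log2 ratios of fadrozole over control, which makes them control over fadrozole, and the sign was reversed here. Medians of the authors' columns were -0.04 to 0.04. Total RNA was extracted with an RNeasy Mini Plus kit and labeled with a Genisphere Array 900MPX kit, per the labels.

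From the scanner values, limma 3.58.1 (R 4.3.3, statmod 1.5.0) corrected the background by normexp with an offset of 50 and fitted a loess curve (span 0.3) over clone spots of each array. The offset shrinks the ratios of dim spots. Spots that were empty, controls or ignored by the scanner software (0 to 29 per array) were weighted 0. The mean of both spots was used, and a clone entered the test if at least 0.5 of its usable spots lay 2 SDs above local background in 1 channel or both on 3 or more arrays. The mean log2 ratio was tested against 0, two-sided, with 4 residual and 5.24 prior degrees of freedom, Benjamini-Hochberg adjustment over 8078 clones and a threshold of 0.05. Pairs of clones were compared by exact sign permutation over the 5 arrays. The number of arrays limits the precision, and p-values leave out the spread of unexposed fish. The pipeline was tested on simulated data.

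The members, lists and alternatives were chosen with earlier results of these data known. Named clones were all members, the called clones and up to 3 clones of smallest p of each list, and the 3 nearest described clones by root mean square distance. The alternatives were plain or no background subtraction, print-tip loess or median centering in place of loess, scaling, no or a stricter filter, the authors' values, centering plates of at least 20 clones, leaving out plates 02 and 04, an intensity trend with robust empirical Bayes, quantification day as a random block, and each array left out. Source plates were read from the clone names.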

Additional observations from a re-analysis of the deposited data

How the results depend on the processing

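The PACAP call on 02g07 was not kept in every setting. It was lost with each plate centered, with plain or no background subtraction, in the authors' values and without replicate 1, 2, 3 or 5. The ratio of 02g07 stayed below 0 in all 16 alternatives and was called in 8. By limma it was -0.54 without background subtraction (adjusted p = 0.0616), -0.54 with plain subtraction (0.162), -0.40 in the authors' values (0.121) and -0.13 with each plate centered (0.673). With 1 array left out it ran from -0.51 to -0.42, and it was called only without replicate 4 (adjusted p = 0.0437, against 0.0575 to 0.0943 without replicate 1, 2, 3 or 5). In those uncalled settings 0 of the 9 clones were called, and without plates 02 and 04, which leaves 4 of them to test, 0 of the 4. Across the array, limma called 0 clones without background subtraction, with plain subtraction, in the authors' values, with each plate centered (910 at an unadjusted p under 0.05) and without plates 02 and 04. It called 92 after scaling, against 164 of 8078 tested clones as reported. With both channels above background it called 347, out of the 3308 clones that this filter left, so that the base of the count differs. With 1 array left out it called 0 to 174 (0 without replicate 2 or 3, 1 without replicate 1 and 99 without replicate 5). Of the processing and granule clones, 2 were called with median centering or both channels above background, 0 after scaling and in the settings that called 0 clones across the array, and 0 to 1 with 1 array left out. Centering the plates moved the PACAP mean to -0.026 and the mean of all 9 clones to -0.015, and without plates 02 and 04 the 4 clones left averaged -0.054. Only 1 NPY clone passed with both channels above background, which leaves the NPY mean at -0.43. NPY 02h16 and 20m18 stayed below 0 and uncalled in all 16 alternatives each. The causes were not tested beyond these settings. No paired analysis was possible because the control is 1 common pool. Dim signal in both channels limits the clones 61g06, 03n01 and 17m14, which did not exceed the 95th percentile of the empty spots in either channel on any array.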
